A study of Mus musculus with 7 samples.

Results

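The lipid kinases that make PI(4)P and PI(4,5)P2 were followed across 7 libraries of mouse T-cells. The 10 genes were taken by name from the gene tables as the whole of 3 enzyme classes. These are the PI 4-kinase genes Pi4ka, Pi4kb, Pi4k2a and Pi4k2b, the PIP 5-kinase genes Pip5k1a, Pip5k1b and Pip5k1c, and the PIP 4-kinase genes Pip4k2a, Pip4k2b and Pip4k2c. They are 10 of the 25033 genes listed, and all 10 passed the filter on low counts. The rule itself uses no measured value.

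The T-cells came from ORP4L KI mice, in which human ORP4L, an oxysterol binding protein, was placed in the Rosa26 locus behind a CAG promoter and a loxP-flanked stop, with a Flag tag and an IRES-EGFP reporter. Cre under the Lck promoter, which is active in T-cells, removed the stop. The 4 ORP4L KI mice were taken when moribund and the 3 wild-type (WT) mice were littermates of the same age, 15 months, all on C57BL/6J, with 1 library a mouse. The methods describe T-cells from blood or spleen purified with an isolation kit for naive CD4+ T-cells, and no source names the tissue of each library. Genotype and the moribund state therefore cannot be told apart in these groups.

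A cell makes PI(4,5)P2 from phosphatidylinositol in 2 steps. PI 4-kinases add a phosphate to give PI(4)P, at the Golgi, on endosomes and at the plasma membrane (PM). PIP 5-kinases then turn PI(4)P into PI(4,5)P2, mostly at the PM, where phospholipase C cleaves it once the T-cell receptor is engaged and PI 3-kinase uses it as a substrate. PIP 4-kinases reach PI(4,5)P2 by another path, from PI(5)P, on internal membranes. The study followed the movement of PI(4)P from the Golgi to the PM and its use there, and the comparison below asks whether the messages of the enzymes on that route differ between ORP4L KI and WT T-cells.

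Library totals ran from 12918187 to 15912921 counts in WT and from 16757959 to 19665679 in ORP4L KI. Counts of Osbp2, the mouse gene for ORP4L, on which reads of the human insert can also land, were 0, 0 and 1 in WT and 188, 742, 155 and 443 in ORP4L KI replicates 1 to 4. All 10 T-cell markers were detected in every library. They took 0.220% to 0.328% of counts in WT and 0.106%, 0.395%, 0.264% and 0.267% in ORP4L KI replicates 1 to 4, lowest in replicate 1. The 14 granulocyte markers, which a T-cell preparation should hold little of, took 0.186% to 0.530% of counts in WT but 12.2%, 1.12%, 3.06% and 4.91% in ORP4L KI replicates 1 to 4. None of the 14 was at 0 in any library, and all 14 were called higher in ORP4L KI (edgeR, unadjusted p under 0.01 and a log2 difference over 1). Markers of dendritic cells were 0.0550% to 0.0769% of counts in WT and 0.0127% to 0.0268% in ORP4L KI, with 7 of 8 called lower. NK cell markers were 0.0714% to 0.0889% of counts in WT and 0.0397% to 0.120% in ORP4L KI, with 4 of 8 called lower. Monocyte and macrophage markers were 0.329% to 0.520% in WT and 0.209% to 0.582% in ORP4L KI, with 2 of 10 called lower. In each of these 2 lists 2 genes had higher values in ORP4L KI, and the shares of the groups overlap. Markers of dividing cells were 0.0211% to 0.0374% of counts in WT and 0.0448% to 0.0896% in ORP4L KI, with 2 of 10 called higher. The libraries are of bulk RNA, so fewer cells of a type and less RNA per cell cannot be told apart.

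The 10 genes lie at separate places in the mouse genome (RefSeq, GRCm38.p6). Pi4ka spans chr16:17280351-17406314, Pi4kb chr3:94974731-95006937, Pi4k2a chr19:42090148-42122218 and Pi4k2b chr5:52741561-52769344. Pip5k1a spans chr3:95058530-95106930, which begins 51592 bases beyond the end of Pi4kb, Pip5k1b chr19:24294794-24555872 and Pip5k1c chr10:81292835-81319974. Pip4k2a spans chr2:18842255-18998291, Pip4k2b chr11:97715157-97744704 and Pip4k2c chr10:127197067-127211628.

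Some members of a class have like coding sequences, so reads could in principle fall on the wrong one. The longest run of bases shared by each pair was therefore read from the coding sequence of 1 transcript a gene (GENCODE on the same build), and the longest run in each class is shown here, 1 of 2 of equal length for the PIP 4-kinases, since Pip4k2b and Pip4k2c also shared 20 bases. The 12 pairs within a class shared at most 10 to 32 bases, against 9 to 20 in the 33 pairs across classes. Pairs of Pi4k2a or Pi4k2b with Pi4ka or Pi4kb shared 10 to 13 bases, within the range of pairs across classes.
Pip5k1a and Pip5k1b (32 bases): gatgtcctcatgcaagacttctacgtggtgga
Pi4ka and Pi4kb (29 bases): cacatcatccacatcgactttggcttcat
Pip4k2a and Pip4k2c (20 bases): tcatggactacagcctcctg
How the authors treated reads that map to several genes is not given in the sources used here. Exons of Pi4ka overlap those of Snap29 by 60 bases and those of Tmem191c by 240 on the opposite strand. Pi4kb likewise overlaps Zfp687 by 254 bases, and Pip4k2c overlaps F420014N23Rik by 244. Pi4kb also overlaps Gm15265 by 407 bases and A730011C13Rik by 234 on the opposite strand, and neither is among the genes listed. Since no source states that strand was used in counting, reads there cannot be told apart.

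Upstream sequence is given for the 3 members whose groups did not overlap in the comparison below, Pi4k2b, Pip5k1c and Pip4k2a, as the bases just before the outermost annotated start (RefSeq, GRCm38.p6, read 5′ to 3′ on the gene's strand). Capitals mark GC boxes, the letters GGGCGG or, on the other strand, CCGCCC, with overlapping matches counted.
Pi4k2b, chr5:52741324-52741560, plus strand: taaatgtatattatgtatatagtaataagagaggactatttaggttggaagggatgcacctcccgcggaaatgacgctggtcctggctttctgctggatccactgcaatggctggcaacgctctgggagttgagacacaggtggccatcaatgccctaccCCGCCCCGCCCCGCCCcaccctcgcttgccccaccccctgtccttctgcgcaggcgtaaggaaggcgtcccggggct
Pip5k1c, chr10:81292713-81292834, plus strand: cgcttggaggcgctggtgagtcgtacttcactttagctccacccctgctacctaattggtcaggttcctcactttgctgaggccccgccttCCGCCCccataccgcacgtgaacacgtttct
Pip4k2a, chr2:18998292-18998371, minus strand: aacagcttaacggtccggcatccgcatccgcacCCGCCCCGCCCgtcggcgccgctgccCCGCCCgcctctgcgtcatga
The printed stretches hold 3, 1 and 3 GC boxes. In the 250 bases before the start of a promoter entry, 7 of the 9 entries found for 8 of the members held at least 1. So did 32.7% of 32851 promoters of all genes. Such a window can lie partly or wholly inside the gene span given above, as that of Pi4k2a does at chr19:42090185-42090434. The overlap of the Pip4k2a stretch with exons annotated to other genes came to 29 bases, summed over exon entries on either strand.

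None of the 10 kinase genes was called different between ORP4L KI and WT T-cells, either at an unadjusted p under 0.01 with a log2 fold change above 1 in size or at an adjusted p under 0.05 (edgeR's quasi-likelihood test, Benjamini-Hochberg adjustment over 13462 genes). The first rule called 4.68% of all genes tested, 2.38% higher and 2.3% lower, and the second 0.0223%. The log2 fold changes of the members ran from −0.68 to 0.79 with a median of −0.13, beside 0.013 over all genes. Values were lower in ORP4L KI for 6 members and higher for 4, where 48.5% of all genes were lower. The p was under 0.05 for Pip4k2a and Pi4k2b, 2 of 10, against 13.7% of all genes, and under 0.01 for Pip4k2a alone, against 5.64%.

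The groups did not overlap for 3 members, a share to be read beside 13.8% of all genes. Pip4k2a and Pip5k1c were lower in all 4 ORP4L KI libraries than in any WT library, as were 7.38% of genes. Pi4k2b was higher in all 4, as were 6.43% of genes. With total counts in place of TMM scaling, the median of all genes moved to −0.13 and 40.3% of calls were higher in ORP4L KI instead of 50.8%, while all 10 members kept their direction.

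**Figure D1:**
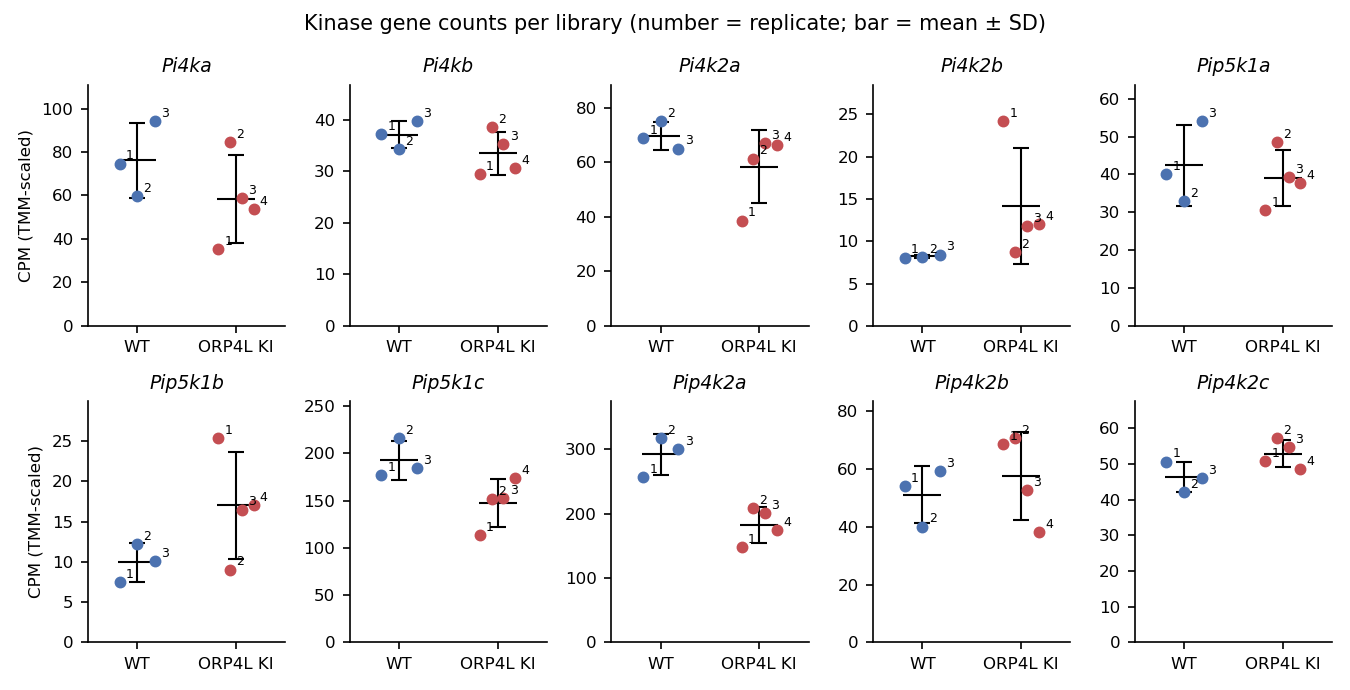
CPM (counts scaled to library size with TMM factors) of the 10 kinase genes on a linear axis from 0, with 1 point a library (3 WT, 4 ORP4L KI), the replicate number beside it and bars for the mean ± SD. Pip4k2a and Pip5k1c lie lower in every ORP4L KI library than in WT, Pi4k2b lies higher in every one, and the points of the other genes overlap.

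Among the PI 4-kinases, 3 of 4 genes had lower values in ORP4L KI and none of them passed the test. Pi4ka encodes PI4KIIIα, the enzyme that makes PI(4)P at the PM. Its CPM was 74.7, 59.6 and 94.1 in WT and 35.5, 84.5, 59.0 and 53.9 in ORP4L KI replicates 1 to 4. The values of 3 ORP4L KI libraries lay below all of WT and that of replicate 2 lay among them. The log2 fold change was −0.39 (SE 0.29, 95% interval −1.04 to 0.27, adjusted p = 0.646, edgeR). It was −0.64 without ORP4L KI replicate 2 (adjusted p = 0.267, edgeR), −0.20 without WT replicate 3 and −0.22 without ORP4L KI replicate 1.

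Pi4kb encodes PI4KIIIβ, the soluble enzyme recruited to the Golgi. Its CPM was 37.3, 34.3 and 39.7 in WT and 29.5, 38.5, 35.3 and 30.6 in ORP4L KI, with 2 ORP4L KI libraries below WT and 2 within it. On the log2 scale the difference was −0.15 (SE 0.18, 95% interval −0.55 to 0.26, adjusted p = 0.813, edgeR). Pi4k2a encodes PI4KIIα, a palmitoylated enzyme of the trans-Golgi network and endosomes. Its CPM was 69.0, 75.0 and 65.0 in WT and 38.7, 61.3, 67.0 and 66.3 in ORP4L KI, where replicate 1 stood well below the others. The fitted log2 difference was −0.26 (SE 0.22, 95% interval −0.76 to 0.24, adjusted p = 0.706, edgeR).

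Pi4k2b encodes PI4KIIβ, the type II enzyme that is largely cytosolic at rest. Its counts were 130, 129 and 120 in WT and 397, 160, 205 and 193 in ORP4L KI, or 8.07, 8.11 and 8.43 CPM against 24.2, 8.76, 11.8 and 12.01. WT libraries lay within 1.04-fold of each other, whereas ORP4L KI libraries spanned 2.76-fold, with replicate 1 far above the rest and replicate 2 just above WT. The mean was 8.21 ± 0.19 CPM (SD, n = 3) in WT and 14.2 ± 6.82 CPM (SD, n = 4) in ORP4L KI. The log2 fold change was 0.79 (SE 0.35, 95% interval 0.01 to 1.56, adjusted p = 0.355, edgeR), and the two-sided exact permutation p was 0.0571. Without ORP4L KI replicate 1 it was 0.40 with an unadjusted edgeR p of 0.103, and p was under 0.05 in 6 of 18 alternatives.

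**Figure D2:**
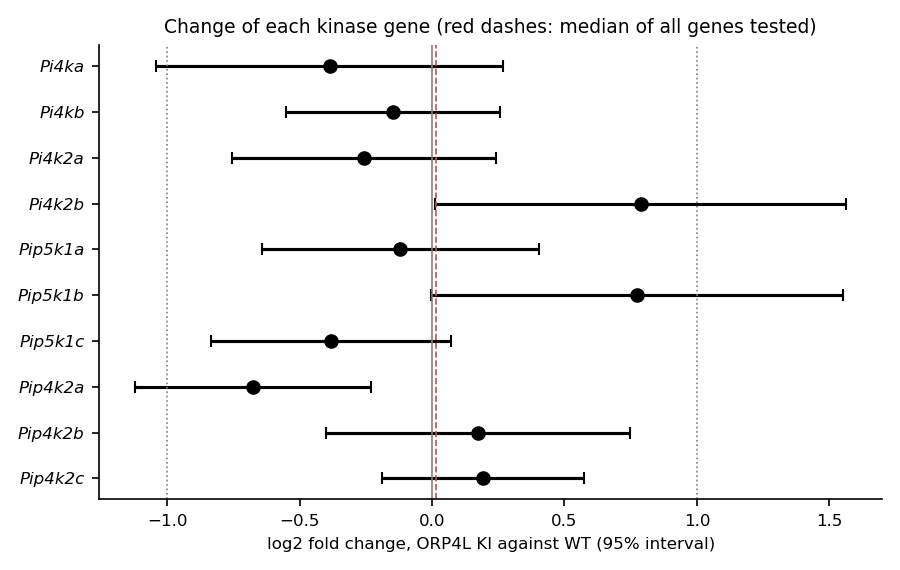
Log2 fold change of each kinase gene, ORP4L KI against WT, with its 95% interval from edgeR's quasi-likelihood fit. Dotted lines mark a log2 fold change of 1 in either direction and the red dashed line the median of all genes tested, 0.013, and no point reaches a dotted line.

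Of the PIP 5-kinases, the dominant gene, Pip5k1c, was lower and the scarcest, Pip5k1b, mostly higher in ORP4L KI, and neither passed the test. Pip5k1c encodes PIP5KIγ, which binds talin at adhesion sites. Its CPM was 177, 216 and 185 in WT and 113, 152, 152 and 174 in ORP4L KI, so that replicate 4 came within a few CPM of the lowest WT library. This gave a log2 fold change of −0.38 (SE 0.20, 95% interval −0.84 to 0.07, adjusted p = 0.464, edgeR) and the exact permutation p was 0.0571.

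Pip5k1b encodes one of the enzymes closely related to it, which also makes PI(4,5)P2 from PI(4)P. Its counts were 120, 194 and 144 in WT and 417, 165, 287 and 274 in ORP4L KI, or 7.45, 12.2 and 10.1 CPM against 25.4, 9.04, 16.5 and 17.04. Replicates 1, 3 and 4 of ORP4L KI lay above WT and replicate 2 lay inside the WT range. This was a log2 fold change of 0.77 (SE 0.35, adjusted p = 0.368, edgeR), with an exact permutation p of 0.171. It was 0.51 without ORP4L KI replicate 1 and 0.97 without replicate 2. Pip5k1a, the remaining member of the class, had 40.2, 33.0 and 54.0 CPM in WT and 30.6, 48.5, 39.2 and 37.7 in ORP4L KI, groups that overlap almost throughout. Its fitted log2 difference was −0.12 (SE 0.23, 95% interval −0.64 to 0.40, adjusted p = 0.889, edgeR), and it turned to 0.093 without WT replicate 3.

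The PIP 4-kinases held the gene with the lowest p of the 10, Pip4k2a. It encodes PIP4KIIα, the most active enzyme of its class. Its counts were 4140, 5054 and 4284 in WT and 2423, 3804, 3490 and 2799 in ORP4L KI, or 257, 318 and 301 CPM against 147, 208, 200 and 174. All 4 ORP4L KI libraries lay below the lowest WT library. The mean was 292 ± 31.3 CPM (SD, n = 3) in WT and 183 ± 27.6 CPM (SD, n = 4) in ORP4L KI, 1.60-fold higher in WT. The log2 fold change was −0.68 (SE 0.20, 95% interval −1.12 to −0.23), with an unadjusted p of 0.00718 and an adjusted p of 0.154 (edgeR). The exact permutation p was 0.0286, the smallest that 35 splits of 4 against 3 can give. Leaving out each library in turn gave −0.76 to −0.59, and the adjusted p over all alternatives ran from 0.0297 with DESeq2's Wald test to 0.632 in the fit blocked by replicate number, which also drops ORP4L KI replicate 4.

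The other two PIP 4-kinase genes had values on the opposite side, within the spread of the libraries. Pip4k2b had 53.9, 39.995 and 59.1 CPM in WT and 68.5, 70.7, 52.6 and 38.0 in ORP4L KI, with ORP4L KI libraries both above and below WT. On the log2 scale this was 0.17 (SE 0.26, 95% interval −0.40 to 0.75, adjusted p = 0.845, edgeR). Pip4k2c, whose product has little catalytic activity of its own, had 50.6, 42.2 and 46.0 CPM in WT and 50.8, 57.3, 54.7 and 48.6 in ORP4L KI, 3 of them above WT. With these values the log2 difference was 0.19 (SE 0.17, 95% interval −0.19 to 0.57, adjusted p = 0.712, edgeR).

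Levels were compared between genes only per length, as the deposited RPKM. In WT the order by median RPKM was Pip4k2a at 91.4, Pip5k1c at 48.3, Pi4k2a at 19.8, Pip4k2c at 16.5, Pi4ka at 12.6, Pip5k1a at 11.8, Pip4k2b at 11.5, Pi4kb at 10.6, Pip5k1b at 4.33 and Pi4k2b at 2.78. The type II PI 4-kinases thus stood at both ends of their class, Pi4k2a as its highest and Pi4k2b as its lowest gene. The ranges of neighbours were apart for the first 4 genes in that order, from Pip4k2a to Pip4k2c. They overlapped between each pair of neighbours from Pip4k2c to Pi4kb, and were apart again below Pi4kb, Pip5k1b and Pi4k2b being the 2 lowest. By mean RPKM in WT, Pip4k2a lay above 93.7% of genes tested and Pi4k2b above 29.3%.

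In ORP4L KI, Pip4k2a at 51.8, Pip5k1c at 37.1, Pi4k2a at 16.9 and Pip4k2c at 16.1 RPKM kept the first 4 places, and Pip5k1b at 6.23 and Pi4k2b at 3.62 the last 2. The genes between changed order, with Pip4k2b at 10.8, Pip5k1a at 10.03, Pi4ka at 8.42 and Pi4kb at 8.36. Ranges of neighbours were apart only between Pip5k1c and Pi4k2a. The RPKM of Pip4k2a was 80.1 to 95.4 in WT and 35.4 to 65.3 in ORP4L KI, and that of Pip5k1c was 45.5 to 51.3 and 22.5 to 39.2.

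**Figure D3:**
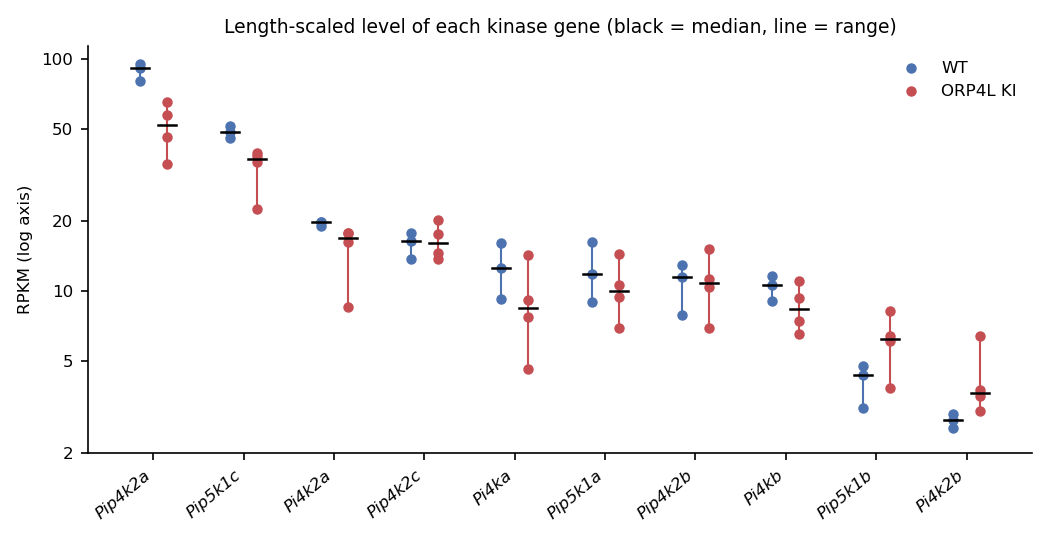
Deposited RPKM of the 10 kinase genes on a log axis, ordered by the WT median, with 1 point a library, a line over the range and a black bar at the median. Pip4k2a and Pip5k1c stand above the rest in WT, at 91.4 and 48.3 RPKM, and in ORP4L KI the highest and lowest genes lie closer together.

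The make-up of each class was taken as each gene's share of the summed RPKM of the class, which does not depend on how libraries are scaled to each other. Pip4k2a made up 73.2%, 80.9% and 76.5% of the PIP 4-kinase message in WT and 58.6%, 64.8%, 67.2% and 68.3% in ORP4L KI. The share of Pip4k2c was 12.1% to 16.3% in WT and 20.1% to 22.8% in ORP4L KI, and that of Pip4k2b was 6.99% to 10.5% and 10.2% to 18.7%. Pip4k2a was thus the main message of the class in all 7 libraries, with the ORP4L KI shares all below those of WT. The ratio of Pip4k2a to Pip4k2c was 4.50 to 6.68 in WT and 2.57 to 3.25 in ORP4L KI.

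Of the PIP 5-kinase message, Pip5k1c took 70.2% to 78.9% in WT and 59.7% to 71.0% in ORP4L KI, and Pip5k1b took 5.18% to 7.28% and 6.66% to 21.9%. Both ranges overlap between the groups, with ORP4L KI replicate 1 at the far end of each. The ratio of Pip5k1c to Pip5k1b was 10.8 to 14.5 in WT and 2.73 to 10.2 in ORP4L KI, ranges that lay apart but close. Of the PI 4-kinase message, Pi4k2b took 5.95% to 6.33% in WT and 24.6%, 6.58%, 9.36% and 10.1% in ORP4L KI replicates 1 to 4. The ratio of Pi4k2a to Pi4k2b, the pair of type II enzymes, was 6.43 to 7.71 in WT and 1.33 to 5.83 in ORP4L KI. The share of Pi4kb was nearly even, at 22.2% to 23.3% in WT and 21.3% to 24.9% in ORP4L KI.

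Summed over a class, the CPM was 191 ± 15.2 (SD, n = 3) in WT and 164 ± 27.3 (SD, n = 4) in ORP4L KI for PI 4-kinases, 245 ± 18.6 and 204 ± 24.9 for PIP 5-kinases, and 389 ± 24.1 and 293 ± 35.7 for PIP 4-kinases. These sums were not tested.

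**Figure D4:**
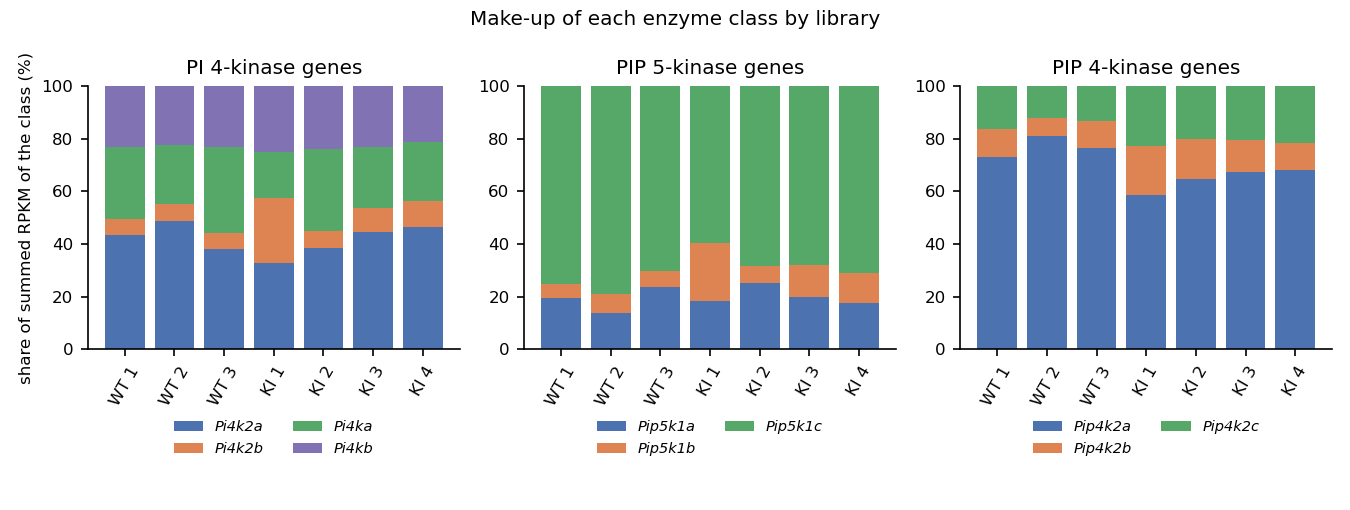
Share of each gene in the summed RPKM of its class, in percent, as stacked bars for each library. The blue part of the right panel, Pip4k2a, is 73.2% to 80.9% in WT and 58.6% to 68.3% in ORP4L KI, and the orange parts of the left and middle panels, Pi4k2b and Pip5k1b, are largest in ORP4L KI replicate 1.

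The granulocyte marker share of the 4 ORP4L KI libraries ran in the order of replicates 1, 4, 3 and 2, from 12.2% down to 1.12% of counts. Pi4k2b, at 24.2, 12.01, 11.8 and 8.76 CPM in that order, and Pip5k1b, at 25.4, 17.04, 16.5 and 9.04 CPM, were ranked in the same way. Pip4k2a, at 147, 174, 200 and 208 CPM, ranked in reverse, and so did Pi4ka, Pi4kb and Pip5k1a. The order was thus the same for 2 of the 10 kinase genes, reversed for 4 and neither for the other 4. Neither order is particular to the kinase genes. Among the 41 other genes of phosphoinositide turnover tested, Cdipt, Pitpna, Arf1, Rab11a and Inpp5j had the same order. The reverse order was that of Efr3a, Acbd3, Armh3, Tln1, Sacm1l, Inpp5f and Inpp5b, and the rest had neither. The share of all genes in each order was not counted. The part of the granulocyte markers in the differences between ORP4L KI and WT was not tested. In ORP4L KI replicate 2, the library with the lowest share, Pip4k2a was at 208 CPM, below the lowest WT value of 257, and Pi4k2b, at 8.76 CPM, lay just above the highest WT value of 8.43, while Pip5k1b, at 9.04 CPM, lay within WT. Without ORP4L KI replicate 1, the library with the highest share, Pip4k2a was at −0.59 on the log2 scale, with an adjusted p of 0.170 (edgeR).

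**Figure D5:**
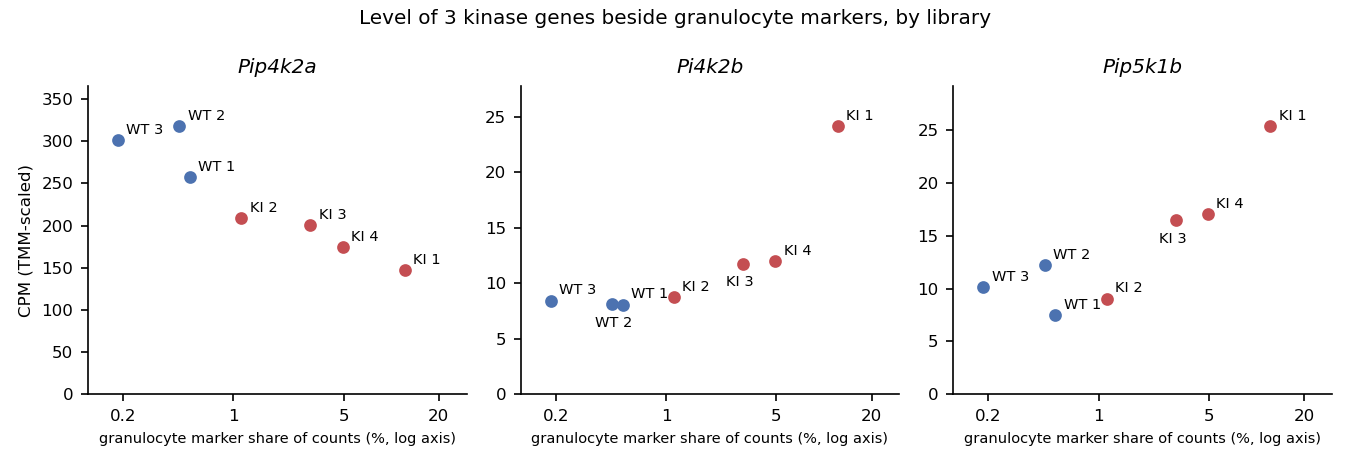
CPM of Pip4k2a, Pi4k2b and Pip5k1b (linear axis from 0) against the summed share of 14 granulocyte markers in the counts of each library (percent, log axis), with WT in blue and ORP4L KI in red. Among the ORP4L KI libraries Pip4k2a is at 208 CPM at the lowest share, 1.12%, and at 147 CPM at the highest, 12.2%, where Pi4k2b and Pip5k1b are at 24.2 and 25.4 CPM.

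Other genes of phosphoinositide turnover were taken from a list of 42 genes found in the tables, of which 41 were tested. Values were higher in ORP4L KI for 21 and lower for 20, with a median log2 fold change of 0.039, and 1 of 41 was called by the rule of p and fold, beside 4.68% of all genes. That gene was Inpp5j, which encodes a 5-phosphatase that acts on PI(4,5)P2 and PI(3,4,5)P3, and it had 2.30, 1.19 and 0.843 CPM in WT and 11.02, 3.07, 4.65 and 5.35 in ORP4L KI. Every ORP4L KI library lay above WT, and the ORP4L KI libraries ranked in the order of their granulocyte marker share, whose part in the difference was not tested. The log2 fold change was 2.05 (SE 0.53, unadjusted p = 0.00354, adjusted p = 0.117, edgeR), with an exact permutation p of 0.0571. The call was lost without WT replicate 2, at 1.92 (adjusted p = 0.408, edgeR), or WT replicate 3, at 1.78 (adjusted p = 0.268, edgeR).

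PI4KIIIα works at the PM in a complex with a TTC7 scaffold, an FAM126 subunit and the membrane anchor EFR3. None of 7 genes of this complex was called. Ttc7, which encodes the scaffold TTC7A, had 156, 194 and 159 CPM in WT and 128, 120, 121 and 108 in ORP4L KI, all 4 below WT. Its log2 fold change was −0.51 (SE 0.18, unadjusted p = 0.0164, adjusted p = 0.223, edgeR). Ttc7b, which encodes the other scaffold and was picked out after its values were seen, had 30.4, 33.9 and 38.8 CPM in WT and 46.6, 43.1, 48.8 and 54.4 in ORP4L KI, all 4 above WT. Its log2 fold change was 0.49 (SE 0.18, unadjusted p = 0.0234, adjusted p = 0.261, edgeR). The values of both scaffold genes stand apart between the groups, on opposite sides, and neither passed either call. With Inpp5j, they were the 3 of 41 list genes whose groups did not overlap, beside 13.8% of all genes.

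In the remaining roles no gene was called, and the one with the lowest p in each is given. Cds1, a CDP-diacylglycerol synthase in the supply of phosphatidylinositol, had a log2 fold change of −0.65 (SE 0.39, adjusted p = 0.543, edgeR), with 4.40 ± 0.43 CPM (SD, n = 3) in WT and 2.81 ± 1.46 CPM (SD, n = 4) in ORP4L KI. Ncs1, a calcium sensor that binds PI4KIIIβ, was near the detection limit at 11 to 22 counts in WT and 17 to 41 in ORP4L KI, with a log2 fold change of 0.67 (SE 0.43, adjusted p = 0.582, edgeR). Tln1, which encodes talin, an activating partner of PIP5KIγ, had a log2 fold change of −0.19 (SE 0.20), Inpp5f, a PI(4)P phosphatase, one of −0.24 (SE 0.25), and Pikfyve, the kinase that makes PI(3,5)P2, one of −0.16 (SE 0.29). In each of these genes the ORP4L KI libraries overlapped with WT.

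For the gene with the lowest p of each class, the 3 genes with the nearest profile were found by Euclidean distance of mean-centred log2 CPM over the 7 libraries. For Pi4k2b they were Pam, at a distance of 0.212, Rab28 at 0.240 and Agtrap at 0.255. For Pip5k1b they were Gm13375 at 0.187, Slc2a3 at 0.340 and Rabgef1 at 0.366. For Pip4k2a they were Sqle at 0.228, Zfp90 at 0.235 and Pisd-ps1 at 0.238. With 7 libraries such a ranking is a description of these samples.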

How the data were processed

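T-cell mRNA of 4 ORP4L KI and 3 WT mice was sequenced on a NovaSeq 6000 after library construction with the VAHTS mRNA-seq V3 kit. The authors removed adapters and short reads, mapped to mouse mRNA sequences with FANSe3 and merged splice variants. The submitters' processing notes name the build mm10. The version, strand and multi-mapping settings are not given in the sources used here. Per the file headers, each deposited table holds a read count per gene, an RPKM value from the longest transcript, and that transcript's length.

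Counts were tested here with edgeR 4.0.16 in R 4.3.3 (TMM scaling, filterByExpr, quasi-likelihood test) over all genes, 4 ORP4L KI against 3 WT libraries with no covariate. CPM are TMM-scaled and RPKM is as deposited. SE is the log2 fold change divided by the root of F. The exact permutation test is two-sided, on mean log2(CPM + 0.5) over 35 splits. The script was tested on simulated data. With 1 library a mouse, the tests weigh the difference between groups against the spread between mice. All 10 kinase genes had at least 120 counts in every library.

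The kinase genes and the lists of other genes were chosen with earlier results of these data known. Named besides them are Osbp2, list genes called or with the lowest p in their role, and the 3 nearest profiles to the lowest p gene of each class. Alternatives covered scaling, filters, DESeq2 1.42.0, other edgeR tests, a replicate block (replicates 1 to 3 of each group), thinned counts, sex read from Xist and Ddx3y, and each library left out. Coordinates, exons and sequences came from RefSeq and GENCODE on GRCm38.p6, the build also called mm10. A promoter entry was found for 8 of the 10 genes.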

Additional observations from a re-analysis of the deposited data

How the results depend on the processing

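Of the log2 fold changes of the kinase genes under alternatives, 179 kept the direction and the side of the call by p and fold, and 1 reversed. With a library left out, that of Pip5k1a ran from −0.27 (without WT replicate 2) to 0.093 (without WT replicate 3). At a looser threshold with no fold limit, 2 members had an unadjusted edgeR p under 0.05 and 1 under 0.01. DESeq2's Wald test called 1 member, Pip4k2a, at an adjusted p under 0.05. The 3 genes of the whole table called at that adjusted p became 44 with upper-quartile scaling, 113 with total counts and 176 with no filter. DESeq2's Wald test called 784, and edgeR's exact and likelihood ratio tests called 682 and 706. They became 0 with at least 10 counts required in every library (1549 genes at an unadjusted p under 0.05) and 0 with sex as a covariate (1544). Leaving out 1 library gave 0 to 342, with 342 without ORP4L KI replicate 2 and 1 or 0 without ORP4L KI replicates 3 or 4 or any WT library. The 630 genes called by p and fold became 328 to 805 with 1 library left out, lowest without WT replicate 2 and highest without ORP4L KI replicate 2, and 466 to 870 under the other alternatives. With a library left out, the list of 42 turnover genes had 0 to 2 calls, with 0 without WT replicates 2 or 3 and 2 without ORP4L KI replicate 1, when Cds1 reached −1.06. Whether the replicate numbers pair the mice is not known. The deviations of libraries with the same number correlated at 0.17, −0.58 and 0.03. Deviations from the means of so few libraries cannot show whether mice were paired. With the number as a block, which also drops ORP4L KI replicate 4, 48 genes passed the adjusted p and 466 the call by p and fold, Pip4k2a was at −0.67 (adjusted p = 0.632, edgeR), and Pikfyve turned to 0.026. With a library left out, Pikfyve ran from −0.34 to 0.25 and was positive without WT replicate 3. The cause of these shifts was not tested. RPKM and TMM-scaled CPM per kb gave levels within 1 SD of each other but for Pi4k2a in WT, at 18.5 by the latter.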
